A study of Homo sapiens with 10 samples.

Results

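The 10 genes TPM1, TPM2, TPM4, TNNT2, TAGLN, CNN2, CNN3, CALD1, MYL9 and ACTN1, which encode proteins of the contractile apparatus and of actin bundles, were followed in DU145 cells with lowered SOX4. They code for 3 tropomyosins, cardiac troponin T, transgelin, 2 calponins, caldesmon, a myosin regulatory light chain and an alpha-actinin. The genes were picked by name with the difference between the groups already known, so their differences are given as a description and without a test. Every one of the 10 had a row among the 13527 features of the deposited table. DU145 is an established human prostate cancer line grown from a brain metastasis. The groups were DU145 with a scramble hairpin (shCon, 3 libraries) and DU145 with a hairpin that knocks down SOX4, an HMG-box transcription factor (shSOX4, 3 libraries), both without further treatment. The labels give neither the hairpin sequence nor whether each line was 1 clone or a pool. The series also holds ATAC-seq libraries of DU145 with an empty vector (2 libraries) or SOX4 overexpression (2 libraries), which were not analysed here.

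Contraction depends on myosin pulling on actin filaments, and the genes followed here encode the parts that line, regulate or crosslink those filaments. Tropomyosins are coiled coils that run along the groove of actin, and in striated muscle they carry the troponin complex, in which troponin T holds on to tropomyosin, troponin C binds calcium and troponin I blocks the filament. In smooth muscle and in other cells calponins, caldesmon and transgelin bind actin in place of troponin, MYL9 is phosphorylated to switch myosin on, and alpha-actinin ties filaments into bundles. In the prostate, high levels of the smooth muscle forms are known from the stroma, while epithelial cells build stress fibres with non-muscle forms of the same families.

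Total counts ran from 31189910 to 43361609 per library. SOX4 itself lay between 8.48 and 12.9 CPM (counts scaled to library size with TMM factors) in shCon and between 4.55 and 6.44 CPM in shSOX4. The edgeR log2 difference of SOX4 was -0.89 (SE 0.236) at an adjusted p of 0.0111, a call lost without shCon 1, where it was -0.71 (adjusted p = 0.0598), and lost with limma on log2(FPKM + 1), where it was -0.48 (adjusted p = 0.0523). Values written with ± are means and SDs over the 3 libraries of a group (n = 3). The second principal component of log2 CPM, with 15.7% of the variance, set shCon 3 and shSOX4 1 apart from the other 4 libraries. The members are therefore also given without these libraries. In bulk RNA, a change in the number of cells of a kind and a change in RNA per cell cannot be told apart.

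The 10 genes fell into sets of equal size. TPM1, TPM2, TNNT2, TAGLN and CALD1 were at least 1 higher on the log2 scale in shSOX4 than in shCon, as were 8.15% of all features. The other 5, TPM4, CNN2, CNN3, MYL9 and ACTN1, lay between -0.27 and 0.16. The median over the 10 was 0.75, against -0.01 over all features. Because the genes were picked on this contrast, these values describe the choice. TNNT2 was the only member under 1 CPM on average in shCon, so a lower level in shSOX4 could not have been measured. No setting tried brought any of the 10 across the line of 1, and without shCon 3 and shSOX4 1 the same 5 lay above it.

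**Figure D1:**
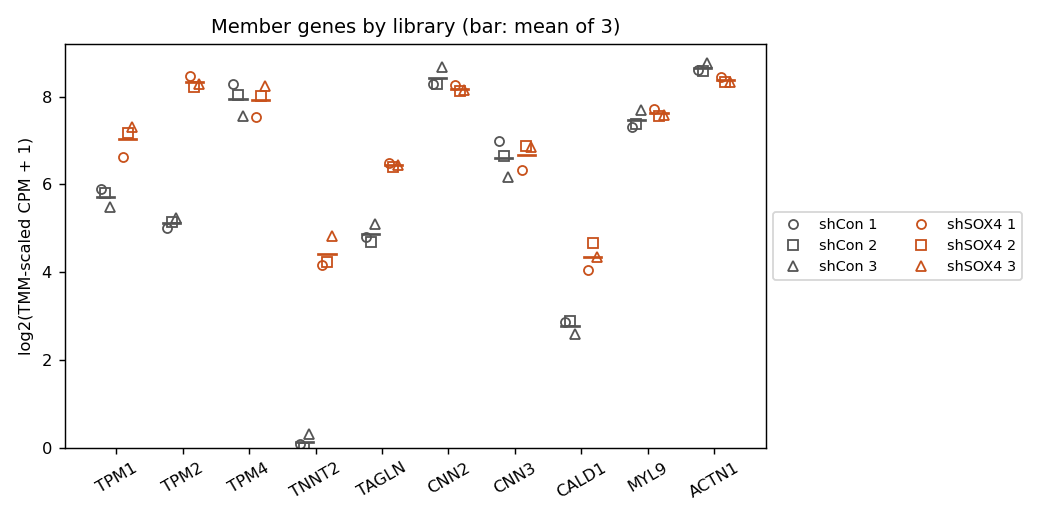
Level of each of the 10 genes in each library, as log2 of TMM-scaled CPM plus 1 on the vertical axis, with gene names on the horizontal axis, shCon in grey and shSOX4 in orange, the marker giving the replicate and the bar the mean of 3 libraries. For TPM1, TPM2, TNNT2, TAGLN and CALD1 all orange points lie above all grey points, while for TPM4, CNN3 and MYL9 the groups overlap.

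Among the tropomyosins, TPM2 stood furthest from its control level. TPM2 (ENSG00000198467, beta-tropomyosin, a form of slow skeletal and smooth muscle) was at 31.3, 34.1 and 36.8 CPM in shCon 1, 2 and 3. In shSOX4 1, 2 and 3 it was at 352, 299 and 311 CPM. The libraries within a group lay close together and the groups were far apart. The mean went from 34.1 ± 2.78 to 321 ± 28.1 CPM, 9.41 times as high, with a log2 difference of 3.23 (SE 0.168, 95% interval 2.87 to 3.59). The value stayed between 3.17 and 3.32 in the 16 alternative settings.

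TPM1 (ENSG00000140416, alpha-tropomyosin, the main form of heart muscle, with many splice forms in other cells) was at 58.4, 55.0 and 43.5 CPM in shCon 1, 2 and 3. It was at 98.4, 143 and 157 CPM in shSOX4 1, 2 and 3. The groups did not overlap, but the lowest shSOX4 library was shSOX4 1 and the lowest shCon library was shCon 3. The log2 difference came to 1.34 (SE 0.199), and to 1.40 (SE 0.136) without those libraries.

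TPM4 (ENSG00000167460, a short non-muscle tropomyosin of stress fibres) behaved differently from both. Its levels were 310, 261 and 187 CPM in shCon 1, 2 and 3 and 186, 257 and 303 CPM in shSOX4 1, 2 and 3. The groups covered the same range, and the lowest library of each was again shCon 3 or shSOX4 1. With a log2 difference of -0.03 (SE 0.210), the 95% interval ran from -0.48 to 0.42, so differences within it cannot be told from none here.

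Measured per length, as the authors' FPKM, the makeup of the tropomyosin pool differed between the groups. TPM3, the remaining gene of the family and a broadly expressed non-muscle form, provided 67.1 to 74.7% of the summed tropomyosin FPKM in shCon and 43.6 to 47.0% in shSOX4. Its own level did not pass the test (log2 -0.05, SE 0.161, adjusted p = 0.835, edgeR), at 397 ± 83.4 FPKM in shCon and 383 ± 43.6 FPKM in shSOX4. TPM2 made up 4.45 to 6.62% of the pool in shCon and 30.2 to 40.0% in shSOX4. By CPM, which weights longer genes more, its mean share was 2.53% in shCon and 19.3% in shSOX4, a shift of 16.8 percentage points in place of 28.9. TPM1 went from 5.62 ± 0.476 to 9.29 ± 1.63% and TPM4 from 17.6 ± 3.81 to 11.2 ± 1.95%. The pool as a whole was 554 ± 105 FPKM in shCon and 845 ± 65.2 FPKM in shSOX4, so the shares of TPM3 and TPM4 were smaller within a larger sum. Tropomyosin genes share sequence with each other and with processed pseudogenes, and the authors' way of dividing such reads was not given in the sources used here.

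**Figure D2:**
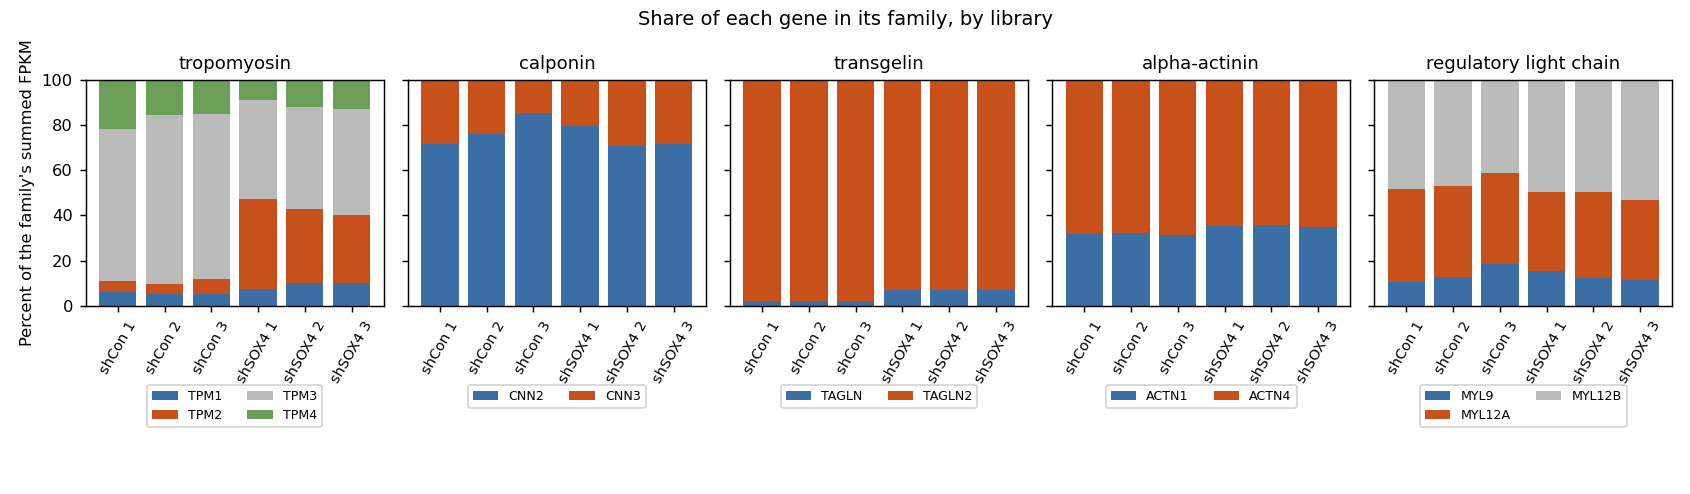
Share of each gene, in percent, in the summed FPKM of its family (vertical axis) in each of the 6 libraries (horizontal axis), with 1 panel per family and 1 stacked bar per library. The TPM2 segment is 4.45 to 6.62% in the shCon bars and 30.2 to 40.0% in the shSOX4 bars, and TAGLN grows from about 2.16 to 6.92% on average beside a transgelin pool that is mostly TAGLN2.

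TNNT2 (ENSG00000118194), which ties troponin to tropomyosin in heart muscle, was close to unread in control cells. It had 3, 0 and 8 counts in shCon 1, 2 and 3, and 573, 579 and 913 counts in shSOX4 1, 2 and 3. All 3 shSOX4 libraries were far above every shCon library, at 16.8, 17.9 and 27.2 CPM. With 11 control counts in all, the size of the difference is poorly fixed. The fitted log2 difference, which depends on the prior count, was 7.72 (SE 0.496). It was 9.03 without shCon 3, which held 8 of those 11 counts, and it was 3.53 in the authors' deposited table. Per length, 16.5 ± 4.10 FPKM in shSOX4 placed TNNT2 below every other member except CALD1.

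The genes that work with troponin T went in both directions. TNNC1, the calcium-binding troponin C of heart and slow muscle, was at 16.6, 20.0 and 23.9 CPM in shCon 1, 2 and 3 and at 94.4, 76.1 and 77.3 CPM in shSOX4 1, 2 and 3. TNNC1 rose by 2.03 log2 units (edgeR, SE 0.195, adjusted p = 4.10e-06). TNNI3, the inhibitory subunit of heart muscle, averaged 13.1 ± 2.56 CPM in shCon and 5.14 ± 2.65 CPM in shSOX4, and fell by 1.34 (edgeR, SE 0.315, adjusted p = 0.0057). TNNT1, the slow skeletal troponin T, had more FPKM than TNNT2 in both groups, 91.0 ± 10.6 in shCon and 64.5 ± 18.6 in shSOX4, and its log2 value of -0.51 did not pass (adjusted p = 0.0777, edgeR). The TNNC1 and TNNI3 calls held in all 16 alternative settings. TNNT3, TNNI1, TNNI2 and TNNC2 had no row in the table.

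The RefSeq promoter table (build GRCh38.p14, 300 bases around each start) held 18 windows for 8 of the 10 genes and none for TAGLN or MYL9. Motifs searched on both strands were the CArG box, bound by SRF, the letters CATTCC, the core of the MCAT element bound by TEAD factors, and ACAAAG, a core bound by SOX proteins. CATTCC was found in 14% of all 35116 windows of the table, ACAAAG in 16.1% and the CArG box in 1.29%. The 250 bases before the TNNT2 start and before a TPM2 start are shown because these genes stood furthest from their control levels. Capitals mark a motif, and each sequence is on the gene's own strand, the minus strand for both, at chr1:201377681-201377930 for TNNT2 and chr9:35690057-35690306 for TPM2.
TNNT2: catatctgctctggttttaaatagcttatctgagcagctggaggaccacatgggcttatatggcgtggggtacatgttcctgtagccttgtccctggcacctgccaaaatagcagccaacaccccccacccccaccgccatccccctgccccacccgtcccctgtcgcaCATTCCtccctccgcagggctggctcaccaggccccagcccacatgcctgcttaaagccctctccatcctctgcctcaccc
TPM2: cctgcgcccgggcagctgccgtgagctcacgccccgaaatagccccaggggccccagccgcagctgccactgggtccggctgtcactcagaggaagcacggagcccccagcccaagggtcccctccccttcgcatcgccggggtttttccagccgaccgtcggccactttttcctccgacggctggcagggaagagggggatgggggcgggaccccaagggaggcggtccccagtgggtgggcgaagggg
The TNNT2 window holds CATTCC 81 to 76 bases before the start and neither other motif. None of the 3 motifs is in either TPM2 window or in the TPM1 window.

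A CArG box was present in 3 of the 18 windows, and these belonged to TPM4, CNN2 and ACTN1, whose log2 differences lay between -0.27 and -0.03. TAGLN, among the higher genes, and MYL9 had no window, so higher and other genes cannot be compared for the box. The stretches around the boxes are shown to set them beside the windows above. They lie at chr19:16067335-16067404 on the plus strand (TPM4), chr19:1026489-1026558 on the plus strand (CNN2) and chr14:68977698-68977767 on the minus strand (ACTN1, which also has a CATTCC in capitals after the box).
TPM4: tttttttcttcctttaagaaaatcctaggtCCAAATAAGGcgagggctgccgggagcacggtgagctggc
CNN2: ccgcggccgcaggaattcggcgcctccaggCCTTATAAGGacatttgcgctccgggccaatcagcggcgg
ACTN1: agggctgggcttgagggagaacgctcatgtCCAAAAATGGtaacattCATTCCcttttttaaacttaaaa
The box lies 173 to 164 bases before a start of TPM4, which has 3 windows, 89 to 80 before the CNN2 start and 171 to 162 before a start of ACTN1, which has 4 windows. CATTCC was in 5 of the 18 windows, against 14% of all windows, and these belonged to 4 of the 8 genes (ACTN1, CALD1, CNN3 and TNNT2). ACAAAG was in 3 of the 18 windows, against 16.1% of all windows, and these belonged to 2 genes (CALD1 and CNN3). A match is a run of letters and not a bound site, and which start these cells used was not measured here.

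Among the smaller actin-binding proteins, TAGLN and CALD1 differed between the groups and the calponins differed little. TAGLN (ENSG00000149591, transgelin or SM22, an early marker of smooth muscle) was at 26.9, 24.7 and 33.4 CPM in shCon 1, 2 and 3. It was at 89.0, 82.7 and 86.4 CPM in shSOX4 1, 2 and 3. The shSOX4 libraries lay close together and none came near the controls. Its log2 difference was 1.60 (SE 0.178, 95% interval 1.22 to 1.98). TAGLN overlaps PCSK7, a proprotein convertase gene whose own level hardly differed (82.8 CPM in shCon and 81.6 CPM in shSOX4), and the strand setting of the counting was not given in the sources used here.

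Next to TAGLN2, its relative of epithelial and blood cells, TAGLN was a minor transgelin in every library. TAGLN2 was at 1131 ± 89.4 FPKM in shCon and 1029 ± 36.9 FPKM in shSOX4 and did not pass the test (log2 -0.15, adjusted p = 0.446, edgeR). TAGLN provided 2.16 ± 0.154% of the sum in shCon and 6.92 ± 0.0702% in shSOX4. TAGLN3 had no row.

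CALD1 (ENSG00000122786), which encodes caldesmon, a long protein in smooth muscle and a shorter one elsewhere, was the member with the fewest reads per length in shSOX4. It was at 6.24, 6.40 and 5.07 CPM in shCon 1, 2 and 3 and at 15.5, 24.4 and 19.2 CPM in shSOX4 1, 2 and 3. The groups did not overlap, and shSOX4 1 was the lowest of its group and shCon 3 of the other. This gave a log2 difference of 1.74 (SE 0.224, 95% interval 1.26 to 2.22). It was 1.07 with limma on log2(FPKM + 1), a scale that compresses genes as low as this, and 1.40 on log2(FPKM + 0.1). The count to FPKM ratio of CALD1, given below, also enters these values. Of the 4 CALD1 windows, 1 holds ACAAAG and 2 hold CATTCC before the start (1 of them as its reverse complement), and 1 more holds ACAAAG after the start. CALD1 is shown because it alone of the 4 higher genes with a window has the SOX core. It also has the most windows of these, 4 against 2 for TPM2 and 1 each for TNNT2 and TPM1. The core is also before a start of CNN3, which lay near its control level. The stretches before the CALD1 starts are given with the match in capitals. They lie on the plus strand at chr7:134711408-134711473 (ACAAAG), chr7:134745395-134745460 (CATTCC) and chr7:134779410-134779475 (its reverse complement).
CALD1 ACAAAG: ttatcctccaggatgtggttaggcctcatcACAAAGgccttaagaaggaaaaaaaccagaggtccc
CALD1 CATTCC: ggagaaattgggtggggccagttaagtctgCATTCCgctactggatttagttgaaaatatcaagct
CALD1 reverse: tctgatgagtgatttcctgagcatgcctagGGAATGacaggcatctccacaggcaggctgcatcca

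CNN2 (ENSG00000064666, calponin 2, found in many non-muscle cells) was the most abundant member per length in shCon. Its levels were 311, 313 and 406 CPM in shCon 1, 2 and 3 and 306, 280 and 285 CPM in shSOX4 1, 2 and 3. All shSOX4 libraries were below all shCon libraries, 311 CPM against 306 CPM at the nearest pair. A log2 difference of -0.24 (SE 0.159, 95% interval -0.58 to 0.10) resulted, and it lay between -0.31 and -0.10 in the 16 alternative settings.

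CNN3 (ENSG00000117519, acidic calponin) was at 125, 99.7 and 71.1 CPM in shCon 1, 2 and 3 and at 78.9, 116 and 114 CPM in shSOX4 1, 2 and 3. The groups overlapped over nearly their whole range. Their log2 difference was 0.06 (SE 0.215, 95% interval -0.40 to 0.52). CNN1, the calponin of differentiated smooth muscle, had no row.

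MYL9 and ACTN1, the motor and crosslinker genes of the group, also lay near their control levels. MYL9 (ENSG00000101335) was at 157, 166 and 206 CPM in shCon 1, 2 and 3 and at 211, 186 and 191 CPM in shSOX4 1, 2 and 3. The shCon 3 value lay inside the shSOX4 range, so the groups overlapped by CPM. By FPKM they did not, at 67.8, 72.7 and 78.4 in shCon and 92.8, 87.9 and 84.5 in shSOX4. The edgeR log2 value of MYL9 was 0.16 (SE 0.161, 95% interval -0.19 to 0.50). With limma on log2(FPKM + 1) it was 0.27 (SE 0.143). MYL12A and MYL12B, closely related regulatory light chains of non-muscle myosin with which reads may be shared, had values of 0.14 (adjusted p = 0.546, edgeR) and 0.46 (adjusted p = 0.067, edgeR). MYL9 gave 13.9 ± 4.07% of the summed FPKM of the 3 genes in shCon and 13.1 ± 2.00% in shSOX4.

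ACTN1 (ENSG00000072110) was at 386, 381 and 433 CPM in shCon 1, 2 and 3 and at 348, 320 and 324 CPM in shSOX4 1, 2 and 3. Every shSOX4 library was below every shCon library. The log2 value was -0.27 (SE 0.147, 95% interval -0.59 to 0.04). ACTN4, the other non-muscle alpha-actinin and the more abundant of the pair, fell by 0.55 (SE 0.146, adjusted p = 0.0113, edgeR), a call lost without shSOX4 2. ACTN1 thus made up 31.8 ± 0.538% of the alpha-actinin FPKM in shCon and 35.4 ± 0.50% in shSOX4, within a sum that went from 322 ± 14.5 to 235 ± 6.23 FPKM. Over the 10 genes by CPM, all shSOX4 libraries lay above all shCon libraries for 5, against 23.1% of all features. They lay below them for CNN2 and ACTN1, against 23.9%. That made 7 of 10 without overlap, against 47.0% of all features, again for genes picked on this contrast.

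The order of the 10 by FPKM differed between the groups. In shCon it ran CNN2 (149 ± 13.6 FPKM), ACTN1 (102 ± 2.89), TPM4 (97.9 ± 29.1), MYL9 (73.0 ± 5.30), CNN3 (42.9 ± 13.9), TPM1 (31.1 ± 5.90), TPM2 (28.6 ± 1.01), TAGLN (24.9 ± 2.01), CALD1 (1.72 ± 0.245) and TNNT2 (0.0608 ± 0.0778). The libraries overlapped between ACTN1 and TPM4, TPM4 and MYL9, CNN3 and TPM1, and TPM1 and TPM2, so these neighbours cannot be ordered. In shSOX4 TPM2 led with 287 ± 20.0 FPKM, clear of CNN2 with 127 ± 4.52. From TPM4 through MYL9, ACTN1, TPM1 and TAGLN, each gene's libraries overlapped those of the next, between 95.9 and 76.4 FPKM on average. CNN3 (44.8 ± 10.0), TNNT2 (16.5 ± 4.10) and CALD1 (4.80 ± 1.35) followed without overlap. TPM2 thus lay below CNN2, ACTN1, TPM4 and MYL9 in shCon and above every other member in shSOX4, and TAGLN lay below CNN3 in shCon and above it in shSOX4.

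The differences among replicates, which played no part in choosing the genes, split them in another way. In shCon 3 and in shSOX4 1, TPM1, TPM4, CNN3 and CALD1 were below the mean of their own group, by 0.21 to 0.44 and by 0.32 to 0.40 on the log2 scale. TPM2, TAGLN, CNN2, MYL9 and ACTN1 were above it in both libraries, by 0.12 to 0.25 and by 0.05 to 0.14. TNNT2 went opposite ways, with few counts in shCon. Of all features 39.1% were below in both and 37.6% above in both, so the 4 and 5 of 10 seen here are close to the shares over all features. Each set holds genes that differed between shSOX4 and shCon and genes that did not. Without shCon 3 and shSOX4 1 the log2 values were -0.03 (SE 0.140) for TPM4, 0.04 (SE 0.142) for CNN3, -0.14 (SE 0.126) for CNN2, 0.23 (SE 0.129) for MYL9 and -0.25 (SE 0.125) for ACTN1.

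**Figure D3:**
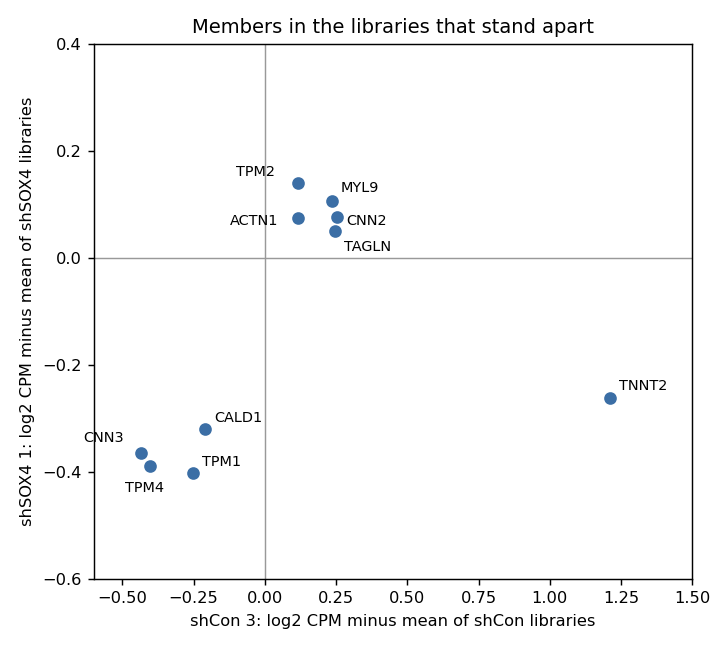
Deviation of each of the 10 genes from its own group's mean, in log2 CPM, in shCon 3 (horizontal axis) and shSOX4 1 (vertical axis), 1 point per gene. TPM1, TPM4, CNN3 and CALD1 sit at the lower left, TPM2, TAGLN, CNN2, MYL9 and ACTN1 at the upper right, and TNNT2 alone at the lower right with a shCon 3 deviation of 1.21.

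The ratio of a gene's count to its FPKM was also independent of the choice of genes. It stands for the length by which the authors divided, and can differ between libraries where a program fits a length to each library. Tested with limma over 13457 features after centring each library, it passed for 0.0223% of them (3 features) and for 0 of the 9 members that could be tested, although 3 of the 9 had an unadjusted p under 0.05, as did 9.77% of all features. The ratio of CALD1 was the one that varied most, at 0.34, 0.18 and 0.12 (centred log2) in shCon 1, 2 and 3 and 0.48, 0.45 and 0.55 in shSOX4 1, 2 and 3. The shift was 0.27 (SE 0.0657, adjusted p = 0.346, limma). Shifts of MYL9 (-0.11, adjusted p = 0.195, limma) and TPM2 (-0.09, adjusted p = 0.175, limma) were smaller, and those of TAGLN, TPM1, TPM4, CNN2 and CNN3 were all under 0.01 in size. The CALD1 means were 1.72 FPKM in shCon and 4.80 FPKM in shSOX4, beside 5.90 and 19.7 CPM.

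Other genes of the contractile system were listed by role, none of them among the 10. These lists were also drawn up with earlier results of these data known. Of 134 listed genes 82 had a row. In the edgeR fit 18 of these rose and 6 fell, 58 did not pass, and their median was 0.04. Among all features 32.8% passed, 17.0% upward and 15.8% downward.

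In the list of striated sarcomere genes only 8 of 44 had a row, and 3 rose and 1 fell. Besides TNNC1 and TNNI3 these were ACTC1, cardiac actin, with 2.63 ± 0.329 CPM in shCon and 6.02 ± 1.70 CPM in shSOX4 (edgeR log2 value 1.20, adjusted p = 0.00514), and TMOD1, which caps the pointed ends of actin filaments (log2 1.69, adjusted p = 0.00317, edgeR). TMOD1 was under 1 CPM on average in shCon, so a lower level in shSOX4 could hardly have been called. It averaged 0.173 FPKM in shCon and 0.571 FPKM in shSOX4, under the minimum of 1 FPKM for the FPKM fits, so neither tested it. MYH1, MYH2, MYH3, MYH4, MYH6, MYH7 and MYH8, the striated muscle myosin heavy chains listed, had no row. The count down was 2 without shSOX4 1.

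Of 14 smooth muscle genes 6 had a row and none passed with edgeR, while 1 was higher and 3 were lower at an unadjusted p under 0.05. DESeq2 called 2 lower and limma-voom 1, and edgeR called 2 lower without shSOX4 1. ACTA2, smooth muscle actin, was at 2.08 ± 0.415 CPM in shCon and 3.24 ± 0.397 CPM in shSOX4 (log2 0.65, adjusted p = 0.107, edgeR). MYH11, DES, LMOD1, SYNPO2 and MYOCD had no row.

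Of 16 measured genes of non-muscle actomyosin 3 rose and 1 fell. MYL6, the essential light chain that sits beside MYL9 on the same myosin, rose by 0.71 (adjusted p = 0.00351, edgeR) and CAPZA1, a filament capping subunit, by 0.77 (adjusted p = 0.0107, edgeR). The myosin heavy chains MYH10 and MYH14 went apart (0.58, adjusted p = 0.0341, and -0.77, adjusted p = 0.0178, edgeR). MYL6B had a value of 0.00 (adjusted p = 0.987, edgeR). The MYH14 call was lost without shSOX4 3, leaving 0 down, and in both FPKM fits. The MYH10 call held in 9 of the 16 alternative settings and was lost, among others, with total-count scaling, in both FPKM fits and without shCon 2, shCon 3 or shSOX4 2.

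Of 38 measured genes of stress fibres and focal adhesions 9 rose and 4 fell. TNS1, a tensin that links actin to integrins, had 2.98 ± 0.627 CPM in shCon and 23.5 ± 7.11 CPM in shSOX4 and rose by 2.98 (edgeR, adjusted p = 2.29e-06). PARVA, which joins integrin-linked kinase to actin, rose by 1.73 (adjusted p = 1.51e-05, edgeR). The LIM-domain genes FHL2 and CSRP1 rose by 1.17 (adjusted p = 9.45e-05, edgeR) and 1.07 (adjusted p = 0.000215, edgeR). Leaving out shSOX4 2 left 0 down, leaving out shSOX4 3 left 1 and leaving out shCon 3 left 2.

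Of 14 measured transcription factors tied to muscle genes 3 rose and 0 fell. TEAD1, which binds the MCAT element searched for above, had 18.2 ± 5.07 CPM in shCon and 37.9 ± 12.0 CPM in shSOX4 and rose by 1.06 (edgeR, adjusted p = 0.00632). TEAD2, TEAD3 and TEAD4 had values of -0.03, -0.30 and 0.18 and did not pass (adjusted p = 0.924, 0.237 and 0.474, edgeR). ELK4 and MRTFB, partners of SRF, rose by 0.76 (adjusted p = 0.0164, edgeR) and 0.77 (adjusted p = 0.032, edgeR). The MRTFB call held in 9 of the 16 alternative settings. It was lost with total-count scaling and without shCon 1, shCon 3, shSOX4 2 or shSOX4 3. The ELK4 call was lost without shCon 2 or shSOX4 2. Neither MRTFB nor ELK4 was tested in the FPKM fits, since both averaged under the minimum of 1 FPKM over all libraries. SRF itself had a value of -0.19 (adjusted p = 0.496, edgeR). At an unadjusted p under 0.05, 1 gene was lower, and 1 was called lower by DESeq2 and without shSOX4 1. Without shSOX4 2, 0 rose.

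**Figure D4:**
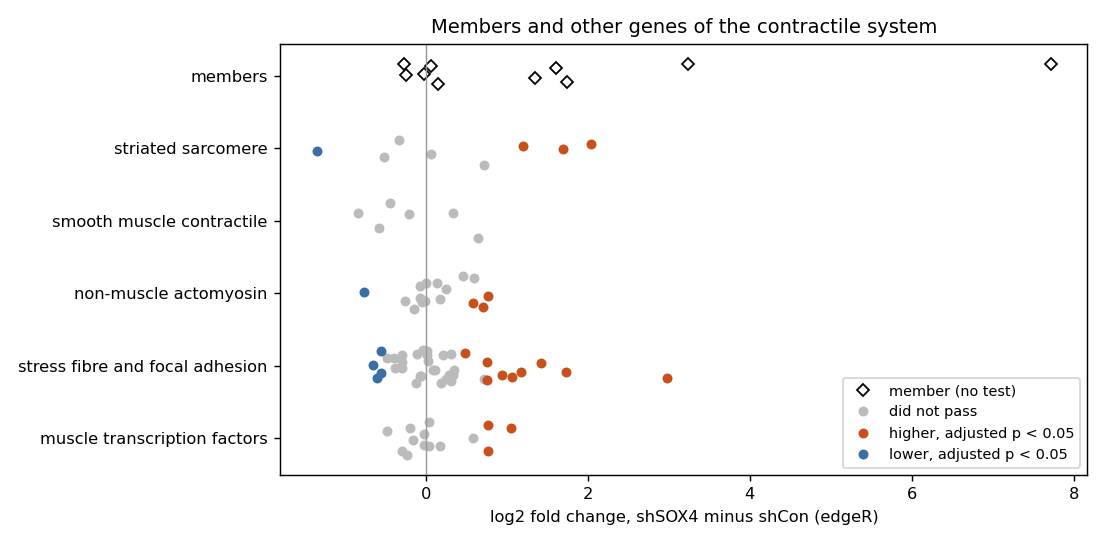
Fold change on the log2 scale (edgeR, shSOX4 minus shCon, horizontal axis) for the 10 genes (open diamonds, no test) and for the measured genes of 5 lists (rows, vertical scatter without meaning), in orange where higher, blue where lower at an adjusted p under 0.05 and grey otherwise. Of the diamonds 5 lie above 1, while the lists spread on both sides of 0 with TNS1 at 2.98 as the highest listed gene.

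Markers of other cell types were read in the same libraries. Of 10 fibroblast markers 3 had a row, LUM, PDGFRB and COL1A1, and all 3 rose (log2 5.02, 2.61 and 2.12, adjusted p = 2.55e-05, 0.000171 and 0.00045, edgeR). Their summed level was 1.69 to 2.48 CPM in shCon and 9.55 to 16.0 CPM in shSOX4, while COL1A2, COL3A1, DCN, PDGFRA, FAP, THY1 and POSTN had no row. In shCon LUM averaged 0.0829 CPM and PDGFRB 0.692 CPM, so a lower level in shSOX4 could hardly have been called for either. Of 8 smooth muscle markers only ACTA2 had a row, at 1.73 to 2.54 CPM in shCon and 2.79 to 3.48 CPM in shSOX4. Of 14 striated muscle markers 4 had a row, 2 rose (TNNC1 and ACTC1), TNNI3 fell and TTN did not pass. TNNC1 went from a mean of 20.2 to 82.6 CPM, and the sum of the 4 was 32.1 to 43.2 CPM in shCon and 86.6 to 108 CPM in shSOX4. Of 9 epithelial markers 7 had a row, 2 rose (KRT8 and KRT18) and 3 fell (CLDN4, CDH1 and EPCAM, edgeR log2 -1.58, -1.28 and -0.83). The sum was 3002 to 4443 CPM in shCon and 6832 to 7730 CPM in shSOX4. Most of it was KRT8 (means of 1828 and 4603 CPM) and KRT18 (1113 and 2274 CPM), so the sum does not describe the other markers. The part of any such cells in the levels of the 10 genes was not tested.

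The genes whose profile over the 6 libraries lay nearest to a member were sought by Euclidean distance of centred log2 CPM, taking genes whose mean was 5 CPM or more. For TAGLN these were GYG2, AQP3 and MCAM, at distances of 0.17, 0.27 and 0.31. For CALD1 they were C12orf4, NOP58 and CLMP, at 0.19, 0.26 and 0.30. For TNNT2 they were COL5A1, SVEP1 and FBN2, but at 3.40, 3.72 and 3.88 none was close, and the log2 difference of COL5A1 was 5.07 beside 7.72 for TNNT2. Profiles of 6 libraries in 2 groups are dominated by the difference between the groups, so these lists describe genes of a similar difference.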

How the data were processed

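Poly-A RNA-seq of 6 libraries was read from 1 deposited table. Its NC columns were read as the scramble libraries and its SH columns as the knockdown libraries, each by its number, and SOX4 was lower in SH. The table holds raw whole-number counts for each gene as deposited by the authors. FPKM, scaled to gene length and depth, stand beside them, named so per the file headers. The authors' log2 fold change and adjusted p-value are also deposited there, by a test not given in the sources used here. HISAT2, STAR and build hg19 are named in the submitters' processing notes without roles. Neither counting program nor annotation was given in the sources used here.

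Counts were fitted with edgeR 4.0.16 in R 4.3.3 (TMM, filterByExpr, which removed no feature, quasi-likelihood F test, two-sided, Benjamini-Hochberg over all 13527 features, threshold 0.05), with limma 3.58.1 and DESeq2 1.42.0 beside it. On simulated counts for this comparison (13527 genes, 200 changed) edgeR recovered 99% of changes of 1 and 100% of changes of 2 on the log2 scale, and 6.13% of its calls were false. Changed genes were drawn only from genes above a count floor, all genes had the same simulated spread, and no library was set apart. The rates may therefore not hold for genes with few counts or for these libraries. Count to FPKM ratios were tested with limma as log2 values. Motifs were searched in RefSeq promoter windows of GRCh38.p14. Whether replicates were separate cultures is not in the labels, so p-values reflect only how these libraries vary, and that variation may be technical.

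The members and lists were chosen with earlier results of these data known. Named genes are the 10, their family mates, up to 4 called genes of each list with the smallest adjusted p, and the 3 nearest profiles of TNNT2, TAGLN and CALD1. The markers, ACTA2, PCSK7, SRF, TEAD2, TEAD3 and TEAD4 were named outside this rule, after their values were seen. Alternatives were other scalings, filters and tools, the replicate number as a block, FPKM fits with pseudocounts of 1 and 0.1, and leaving out libraries. The results of 1 further gene list are not reported here.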

Additional observations from a re-analysis of the deposited data

How the results depend on the processing

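Of the 10 members, TAGLN, MYL9, TPM1, TPM2, TPM4, CNN2, CNN3 and ACTN1 moved by less than the spread between replicates in all 16 alternative settings. TNNT2 ranged from 4.02 with limma on log2(FPKM + 1) to 9.16 without shCon 3 and shSOX4 1 together (6.77 on log2(FPKM + 0.1), 9.03 without shCon 3), and CALD1 was 1.07 and 1.40 in the FPKM fits. TPM4 and CNN3 changed sign between settings, from -0.20 to 0.15 and from -0.12 to 0.27. The number of members at 1 or more was 5 throughout (5 to 5 with a library left out). No member's count to FPKM ratio passed in any setting (0 to 0 with a library left out).

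The number of features changed was 4431, and 2509 to 4966 with a library left out (1411 to 2653 up, 1098 to 2313 down), the lowest without shSOX4 2. It was 2928 on log2(FPKM + 0.1), with 1373 up, and 1514 were up on log2(FPKM + 1). Fewer features (11287) were tested in the FPKM fits, which took only those with a mean of at least 1 FPKM. With a library left out, striated sarcomere genes had 3 to 3 up and 1 to 2 down, smooth muscle genes 0 to 0 up and 0 to 2 down, and non-muscle actomyosin genes 2 to 4 up and 0 to 1 down. Stress fibre genes had 6 to 10 up and 0 to 5 down, and transcription factors 0 to 4 up and 0 to 1 down. Without shCon 3 and shSOX4 1 together, 2 sarcomere genes, 2 smooth muscle genes and 1 transcription factor were down. In the FPKM fits with pseudocounts 1 and 0.1, non-muscle genes had 0 and 0 down, transcription factors 1 and 1 up and 1 and 1 down, and with 0.1 a single smooth muscle gene (1) was up. Of the transcription factors called up in the main fit, TEAD1 stayed up there, while ELK4 and MRTFB were under the FPKM minimum and not tested. Smooth muscle genes had 1 down with the stricter CPM filter, 2 by DESeq2 and 1 by limma-voom. Transcription factors had 1 down with total-count scaling, with that filter and by DESeq2. The cause of the other moves was not tested.

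Same-numbered libraries did not deviate together (correlations of -0.29, 0.16 and -0.29), so the numbers were not taken as pairs. With the replicate block 3374 features changed, stress fibre genes had 2 down, and the MYH10 call was lost. The TPM2 share shifted by 28.9 percentage points (26.0 to 30.9 with a library left out) and by 16.8 in CPM, the TPM4 share by -6.33 (-7.57 to -4.13) and the TAGLN share by 4.76 (4.68 to 4.84) and by 3.24 in CPM, where longer genes weigh more. With 11 control counts, depth limits TNNT2.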
